A study of Mus musculus with 26 samples.

Results

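Proteasome genes were taken as the protein-coding rows, present in both deposited tables, whose symbol is Psma, Psmb, Psmc, Psmd, Psme or Psmg followed by a number. Psmb8, Psmb9 and Psmb10, the inducible catalytic subunits of the immunoproteasome, were left out. The rule used no measured value, but it was set with earlier results of these data known. It gave 44 genes, of 19404 listed in the table of the deletion experiment and 19719 in that of the knockdown experiment. RNA of cultured pro-B cells of the C57/Bl6 strain was sequenced in 10 libraries to follow the loss of Brg1, the ATPase of the SWI/SNF chromatin remodelling complexes, encoded by Smarca4. All cultures began from B220+ bone marrow cells kept with IL7 and SCF for 7 days. The 2 Brg1-deleted libraries came from Brg1F/F x ER-Cre cells and the 2 control libraries from Brg1+/+ x ER-Cre cells. Cells of both these groups received 0.3 µM tamoxifen for the last 60 hours, so the controls carried an active Cre too. The 3 Brg1 shRNA libraries and the 3 control shRNA libraries came from Rag1-/- cells, which cannot rearrange antigen receptor genes. These cells were infected with retrovirus on days 3 and 4 and enriched for the human CD25 that marks infection. Whether the libraries within a group stem from different mice is not stated, so p-values measure only the spread between these libraries. In bulk RNA, fewer cells of a type and less RNA per cell cannot be told apart.

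The proteasome is the large protease that degrades ubiquitin-tagged proteins. Its 20S core is a barrel of alpha and beta rings with the active sites inside, on the beta subunits Psmb5, Psmb6 and Psmb7. The 19S cap has a base, whose ring of Psmc ATPases unfolds the substrate and threads it into the core, and a lid that removes the ubiquitin chain. Psme proteins are alternative caps or activators, and Psmg proteins and several Psmd proteins are chaperones of assembly. In mammals the transcription factor Nfe2l1 (Nrf1) raises proteasome genes together when the proteasome is inhibited, through antioxidant response elements in their promoters.

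The tables give 1 mean of normalized reads per group and gene, with the authors' p-values. In the deletion table the means could be resolved into the whole reads of the single libraries, and this worked without ambiguity for 41 of the 44 proteasome genes. Libraries are numbered 1 and 2 within a group as recovered, which is no pairing. Depth was about 11705566 and 8696324 reads in the Brg1-deleted libraries and 10625162 and 10352174 in the control libraries, and 5201290 to 11051850 in the knockdown experiment. Smarca4 itself fell to 6067 normalized reads in Brg1-deleted cells, against 17898 in control cells (adjusted p 0.0008, authors' deposited table). It fell to 6743 with Brg1 shRNA, against 13340 with control shRNA (adjusted p 0.0472, authors' deposited table). All 11 pro-B markers looked for were listed in both tables, and their group means summed to 74653 in Brg1-deleted cells and 50631 in control cells, and to 47798 with Brg1 shRNA and 41582 with control shRNA. The sums rest on abundant markers such as Cd79b, while Kit, an early progenitor receptor, had 151 in Brg1-deleted cells and 478 in control cells, and 67.2 with Brg1 shRNA and 154 with control shRNA. The 4 of the 11 markers that could be resolved summed to 1149 and 4384 in the Brg1-deleted libraries, against 4889 and 3063 in the control libraries. These 4 make up only a small part of the sums over all 11. They do not tell how the full sums differed between libraries. Transcripts of other blood cells differed within groups: 7 macrophage markers summed to 4827 and 1895 normalized reads in the Brg1-deleted libraries, against 2514 and 7131 in the control libraries. The means of 7 neutrophil markers summed to 761 in Brg1-deleted cells and 2705 in control cells, of which Mpo made 513 and 2177. The 6 of them that could be resolved summed to 9.50 and 485 in the Brg1-deleted libraries, against 871 and 185 in the control libraries. In the knockdown experiment the macrophage means summed to 378 with Brg1 shRNA and 316 with control shRNA, and the neutrophil means to 171 and 206. Listed markers of mast cells or basophils summed to 363 in Brg1-deleted cells and 346 in control cells, those of T and NK cells to 18.5 and 32.2, of erythroid cells to 3.89 and 5.48 and of stroma to 12.1 and 20.4. The part of these cells in the values below was not tested.

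Brg1-deleted pro-B cells had lower means than control cells for 43 of the 44 proteasome genes. Among the 42 broadly expressed genes the amounts ran from 51.6% of control for Psme3 to 95.3% for Psmd4. The median log2 fold change was -0.52, which is a level of 69.5% of control, and no gene reached a 2-fold difference. Over the 11688 protein-coding genes with a mean of at least 10 normalized reads, the median was -0.01 and 51.0% lay below 0. By the authors' deposited table, none of the 44 had an adjusted p under 0.05, where 1.47% of all genes did (0.742% lower and 0.732% higher). At an unadjusted p under 0.05 the authors' deposited table has 7 of the 44, all lower: Psma4, Psmd1, Psmd7, Psmd12, Psmd14, Psme3 and Psmg1, where 9.52% of all genes had such a p and 5.29% were lower. The lowest adjusted p-values there were 0.151 for Psme3, 0.1934 for Psmd7, 0.3578 for Psmd14 and 0.436 for Psma4. A limma fit to the recovered reads of 16783 genes also called 0 of the 41 resolved proteasome genes at an adjusted p of 0.05, with 27 lower at an unadjusted p under 0.05 (8.69% of all genes). That fit called 0 genes of any kind, with 2811 (16.7%) at an unadjusted p under 0.05. Leaving out a library changed the 27 to 6 (Brg1-deleted library 1), 19 (Brg1-deleted library 2), 7 (control library 1) or 11 (control library 2), and no proteasome gene was called in any of these fits. The authors mark 17 of the 44 genes as confounded, a term that the sources used here do not define. Psma4, Psmd1, Psmd12, Psmd14, Psmb5 and Psmb7 carry the mark, while Psmd7, Psme3, Psmg1 and Psmb6 do not. The share of marked genes over all genes was not computed.

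The single libraries show the same offset gene by gene. In 37 of the 41 resolved genes both Brg1-deleted libraries lay below both control libraries, where 23.4% of all 16783 genes did. In 1, Psmb11, both lay above, where 24.7% of all did, and in Psmb1, Psmd4 and Psma8 the groups overlapped. Among the 8131 genes at least as abundant as the least abundant broadly expressed proteasome gene, Psmg4, 29.8% had both Brg1-deleted libraries below both control libraries. Set against the mean of the controls, the 39 broadly expressed genes had a median log2 value of -0.63 in Brg1-deleted library 1 and -0.50 in Brg1-deleted library 2, against -0.01 and 0.01 in the control libraries. All 39 were below the control mean in the first Brg1-deleted library and 38 in the other, the exception being Psmd4. The genes share their libraries, so these counts are not independent of each other. Counting error was small beside the median offset, since the median value rests on 1035 reads (3.11% counting error). Libraries of the same group differed by more than counting error. The chi-square per proteasome gene was 10.0 between the Brg1-deleted libraries and 15.5 between the control libraries. The least covered value, for Psmg4, rests on 74 reads (11.6%). Some groups counted as separate differ by less than counting error at their nearest libraries, such as Psmg4 (86.1 against 91.7) and Psmd10 (188 against 195).

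**Figure D1:**
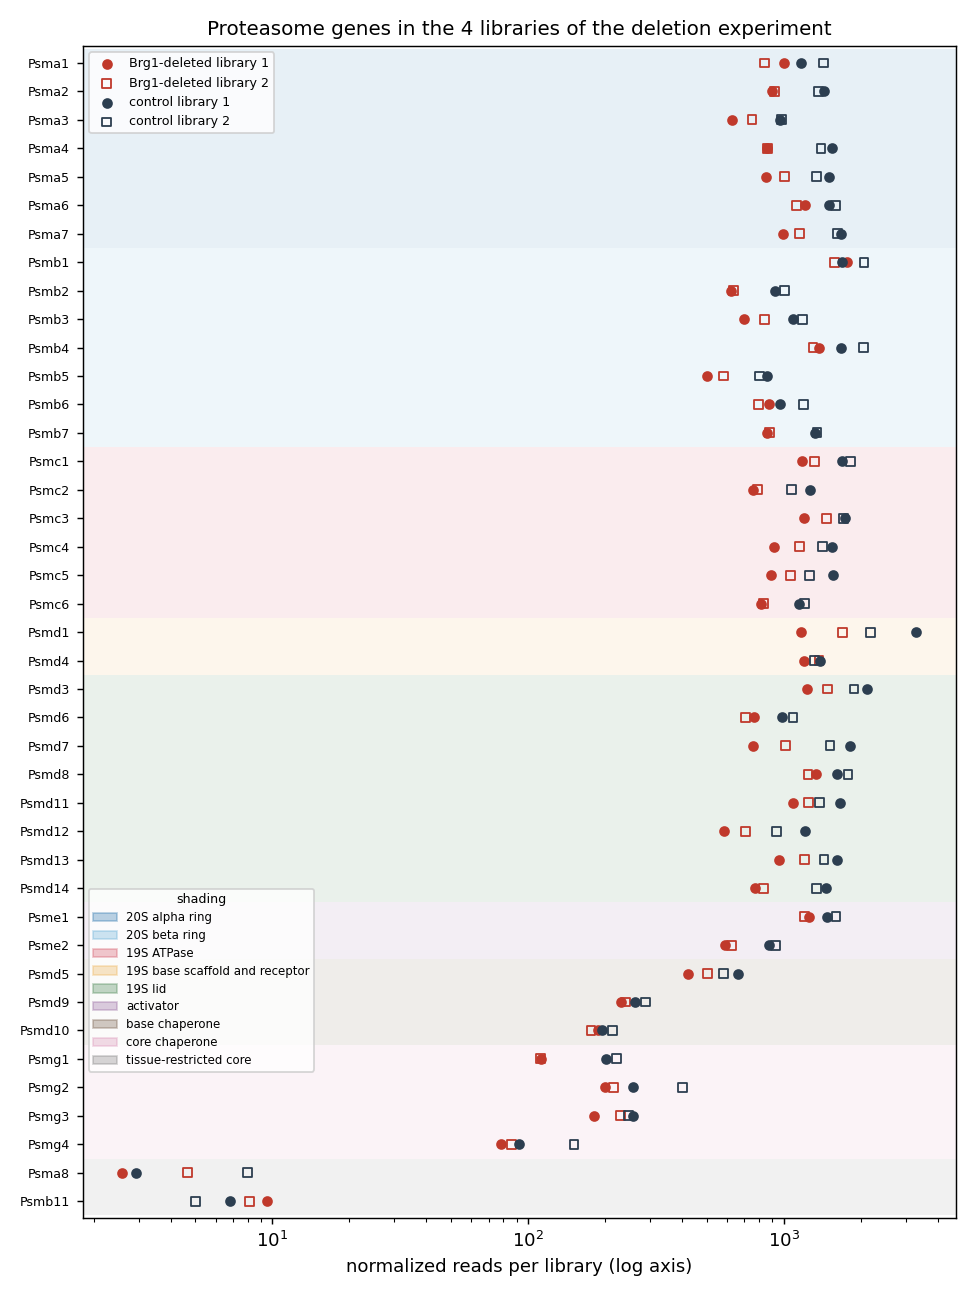
Each row is a resolved proteasome gene and each mark its normalized reads in 1 library of the deletion experiment, on a log axis. Red marks are the 2 Brg1-deleted libraries and dark marks the 2 control libraries, and shading gives the class. In 37 of 41 rows both red marks lie left of both dark marks, while Psma8 and Psmb11 lie under 10 normalized reads.

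The alpha ring of the 20S core, which gates the entry of substrate, was lower in Brg1-deleted cells for all 7 genes, with a median log2 fold change of -0.62. Psma4 lay lowest, with 860 and 863 normalized reads in the Brg1-deleted libraries against 1544 and 1395 in the control libraries. Its log2 fold change was -0.77 (adjusted p 0.436, authors' deposited table), and limma gave an SE of 0.16 and an adjusted p of 0.1381. Psma2 (mm10 chromosome 13, 14613242 to 14625671) had 896 and 919 normalized reads in the Brg1-deleted libraries against 1429 and 1366 in the control libraries, and Psma6 had 1204 and 1120 against 1501 and 1590. Neither pair of groups overlapped, where 29.8% of genes at least as abundant as Psmg4 had both Brg1-deleted libraries lower. Psma6, at -0.41, was the least lowered of the ring.

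The beta ring holds the proteolytic sites, and its 7 genes had a median of -0.56. Psmb5, the chymotrypsin-like subunit (chromosome 14, 54614120 to 54617995), had 499 and 580 normalized reads in the Brg1-deleted libraries against 856 and 804 in the control libraries, a log2 fold change of -0.62. Psmb7, the trypsin-like subunit (chromosome 2, 38588036 to 38644087), had 858 and 876 against 1321 and 1346, also -0.62. Psmb6, the caspase-like subunit (chromosome 11, 70525367 to 70527858), had 870 and 794 against 963 and 1193, or -0.37. In each of these 3 genes the groups were separate, where 29.8% of genes at least as abundant as Psmg4 had both Brg1-deleted libraries lower. Adjusted p-values in the authors' deposited table were 0.7502 for Psmb5, 0.7452 for Psmb7 and 1 for Psmb6. Psmb1, a beta subunit without an active site, stood apart from its ring with 1756 and 1578 normalized reads in the Brg1-deleted libraries against 1680 and 2054 in the control libraries. Its groups overlapped and its log2 fold change was -0.16.

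Promoters from RefSeq (GRCm38.p6, 250 bases before to 50 after the annotated start) were matched for 36 of the 44 genes and searched on both strands. Psma8, Psmb1, Psmb2, Psmb7, Psmc3, Psmd3, Psmd7 and Psmg2 had no match, so the catalytic subunit Psmb7 was not searched. The antioxidant response core TGACNNNGC was in 6 of the 36 genes (16.7%), among them Psmb5 and Psmb6. Of 8710 protein-coding genes with a promoter and a mean of at least 10, 17.2% had it. In both counts a gene has a motif if any of its promoters does. CACGTG, the E-box bound by Myc, was in 3 (8.33% against 12.0%), CCAAT in 13 (36.1% against 43.5%), and CCGGAAG, bound by ETS factors, in 14 (38.9% against 21.1%). Counted per promoter and not per gene, the shares over all 32851 promoters were 12.4%, 7.15%, 37.4% and 8.86% in the same order. Motifs were counted separately, none of the 4 contains another, and a match of letters is not a binding site. The promoters of both catalytic subunits with the antioxidant response core, and that of Psme3, which had the lowest adjusted p of the proteasome genes, are given 5′ to 3′ with matches to any of the 4 motifs in capitals.
Psmb5 promoter, chr14:54617946-54618245, minus strand: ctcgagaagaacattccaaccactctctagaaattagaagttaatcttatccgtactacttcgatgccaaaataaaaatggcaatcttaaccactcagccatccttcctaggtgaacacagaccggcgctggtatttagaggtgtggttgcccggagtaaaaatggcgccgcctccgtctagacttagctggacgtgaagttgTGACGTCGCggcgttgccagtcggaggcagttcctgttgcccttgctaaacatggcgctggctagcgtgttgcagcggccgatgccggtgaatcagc
Psmb6 promoter, chr11:70525107-70525406, plus strand: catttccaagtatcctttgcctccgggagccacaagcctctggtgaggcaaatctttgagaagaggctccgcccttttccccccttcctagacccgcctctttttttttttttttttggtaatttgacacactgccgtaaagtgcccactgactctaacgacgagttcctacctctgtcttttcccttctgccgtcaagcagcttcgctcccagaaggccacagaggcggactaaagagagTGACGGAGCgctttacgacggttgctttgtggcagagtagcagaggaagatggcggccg
Psme3 promoter, chr11:101315963-101316262, plus strand: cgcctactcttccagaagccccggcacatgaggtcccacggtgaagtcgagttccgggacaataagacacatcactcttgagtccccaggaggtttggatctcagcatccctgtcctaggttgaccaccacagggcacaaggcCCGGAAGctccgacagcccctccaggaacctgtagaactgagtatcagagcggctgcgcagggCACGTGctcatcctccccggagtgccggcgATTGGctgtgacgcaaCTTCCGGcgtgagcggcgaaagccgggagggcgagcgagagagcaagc
With the annotated start as position 1 and no position 0, the match begins at -47 in Psmb5 and at -9 in Psmb6. In Psme3 the E-box begins at -44 and an ETS match at -107, and matches on the other strand begin at -14 (CCAAT) and 3 (ETS).

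The ATPase ring of the 19S base had the narrowest spread of any class with more than 4 genes. Its 6 genes, Psmc1 to Psmc6, lay between -0.60 (Psmc2) and -0.37 (Psmc3), with a median of -0.52 and an SD over genes of 0.08. Psmc2 had 754 and 786 normalized reads in the Brg1-deleted libraries against 1259 and 1072 in the control libraries. Psmc3 had 1197 and 1463 against 1724 and 1711. The 2 groups were separate in all 6, where 29.8% of genes at least as abundant as Psmg4 had both Brg1-deleted libraries lower. The lowest adjusted p of the ring in the authors' deposited table was 0.7972, for Psmc2.

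The other base subunits were the most uneven of the broadly expressed classes. Psmd1, the scaffold Rpn2 (chromosome 1, 86064387 to 86139151), had 1168 and 1692 normalized reads in the Brg1-deleted libraries against 3276 and 2181 in the control libraries. The log2 fold change was -0.93 (adjusted p 0.4387, authors' deposited table), and libraries of both groups differed widely. Psmd2, the scaffold Rpn1, had a log2 fold change of -0.44 on group means of 2237 in Brg1-deleted cells and 3026 in control cells. Psmd2 had 1889 and 2586 in the Brg1-deleted libraries, while its control mean could be split as 1765 and 4286 or as 3700 and 2351, so it is not counted as resolved. Psmd4, the ubiquitin receptor Rpn10, had 1199 and 1371 in the Brg1-deleted libraries against 1380 and 1316 in the control libraries, which overlap. Its log2 fold change of -0.07 was the nearest to 0 among all proteasome genes.

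The lid was lower in Brg1-deleted cells in all 8 genes, with a median of -0.53 and no overlap of groups in any. Of genes at least as abundant as Psmg4, 29.8% had both Brg1-deleted libraries lower, and the 8 genes share the same libraries. Psmd7, the partner of the deubiquitinase (chromosome 8, 107580381 to 107588482), had 755 and 1016 normalized reads in the Brg1-deleted libraries against 1807 and 1513 in the control libraries. Its log2 fold change was -0.91 (p 0.0057 unadjusted and 0.1934 adjusted, authors' deposited table). Psmd14, the deubiquitinase Rpn11 itself (chromosome 2, 61711694 to 61800376), had 768 and 829 against 1457 and 1342, or -0.81 (adjusted p 0.3578, authors' deposited table). Its adjusted p in limma, 0.1329, was the lowest of the resolved genes. Psmd12 had 583 and 707 against 1207 and 937, or -0.73. These 3 lid genes lay lowest, and the other 5, Psmd3, Psmd6, Psmd8, Psmd11 and Psmd13, lay between -0.56 and -0.38.

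Among the activators, Psme3, which forms the nuclear PA28 gamma cap (chromosome 11, 101316213 to 101323537), had the largest difference of all broadly expressed proteasome genes in the deletion experiment. Its group means were 1446 in Brg1-deleted cells and 2803 in control cells, a log2 fold change of -0.95 (p 0.0037 unadjusted and 0.151 adjusted, authors' deposited table). The Brg1-deleted libraries had 1341 and 1551 normalized reads, and the control mean could be split as 3147 and 2459 or as 5083 and 523. Psme1 and Psme2, the interferon-inducible PA28 alpha and beta subunits, had log2 fold changes of -0.33 and -0.57. Psme1 had 1250 and 1201 in the Brg1-deleted libraries against 1479 and 1597 in the control libraries, and Psme2 had 586 and 623 against 875 and 926. Psme4, the cap PA200, had group means of 1216 in Brg1-deleted cells and 1832 in control cells, or -0.59. Its Brg1-deleted libraries had 1109 and 1323, and its control mean could be split as 253 and 3411 or as 2188 and 1475.

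The assembly chaperones were described by the particle they serve. The core chaperones Psmg1 to Psmg4 had a median of -0.61, and Psmg1, at -0.92, had 112 and 112 normalized reads in the Brg1-deleted libraries against 202 and 222 in the control libraries. Psmg2 had 200 and 215 against 257 and 402, Psmg3 had 180 and 230 against 256 and 247, and Psmg4 had 78.6 and 86.1 against 91.7 and 151. All 4 were separate between the groups, Psmg3 and Psmg4 by small margins, where 29.8% of genes at least as abundant as Psmg4 were lower in this way. The base chaperones Psmd5, Psmd9 and Psmd10 had a median of -0.22. Psmd5 had 422 and 504 normalized reads in the Brg1-deleted libraries against 661 and 579 in the control libraries, Psmd9 had 231 and 240 against 261 and 287, and Psmd10 (gankyrin) had 188 and 176 against 195 and 213. The fold changes of the 2 kinds overlapped, since Psmd5 (-0.42) lay below Psmg3 (-0.30), and their difference was not tested.

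The tissue-restricted core genes Psma8, of the testis, and Psmb11, of the thymic cortex, were near the floor. Psma8 had 3 and 4 reads in the Brg1-deleted libraries and 3 and 8 reads in the control libraries, and Psmb11 had 11 and 7 reads against 7 and 5. Psmb11, at 0.58, was the gene above 0 among the 44 in this experiment, and counts this low carry no direction.

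Knockdown of Brg1 in Rag1-/- cells gave lower means for 42 of the 44 genes, at a smaller size. The median log2 fold change was -0.24, or 84.6% of control shRNA, against -0.02 over 11093 protein-coding genes with a mean of at least 10, of which 51.9% lay below 0. No proteasome gene was called in the authors' deposited table, where 0.218% of all genes were (0.0406% lower and 0.177% higher), and all 44 had an adjusted p of 1. None had an unadjusted p under 0.05 either, where 2.74% of all genes did (1.08% lower). The knockdown means, each of 3 libraries, were not resolved into single libraries, so the authors' means stand without a spread here. Psmg4 lay lowest among the broadly expressed genes, at 77.2 normalized reads with Brg1 shRNA and 115 with control shRNA (log2 fold change -0.58, unadjusted p 0.1388 in the authors' deposited table). Psma2 had 1087 with Brg1 shRNA and 1531 with control shRNA (-0.49), Psmb6 had 714 and 974 (-0.45), and Psmd7 had 1124 and 1508 (-0.42). Psmb5 and Psmb7 had log2 fold changes of -0.21 and -0.23, Psmb1 of -0.07 and Psmd9 of 0.02. Psma8, at 1.71 and 5.88, and Psmb11, at 5.67 and 3.04, were again too low to read.

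Both experiments, which share no library, gave the same sign for 43 of the 44 genes, with 42 below 0 in both. Psmd9 was the exception. Among 11012 protein-coding genes with a mean of at least 10 in both tables, 80.1% had the same sign and 41.5% lay below 0 in both. Of the 42 broadly expressed genes, 39 had the lower log2 fold change in the deletion experiment, and the difference between experiments was not tested. Over these 42 genes Pearson's r between the experiments was 0.57 and Spearman's rho 0.62, and over the 11012 genes they were 0.72 and 0.75, both as descriptions over genes. Psmd1, Psmd7, Psme3 and Psmg1 had the 4 lowest values in the deletion experiment, at -0.93, -0.91, -0.95 and -0.92 in that order, and lay at -0.31, -0.42, -0.35 and -0.37 in the knockdown experiment. Psmd4 and Psmb1, nearest to 0 after deletion, lay at -0.11 and -0.07 after knockdown.

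**Figure D2:**
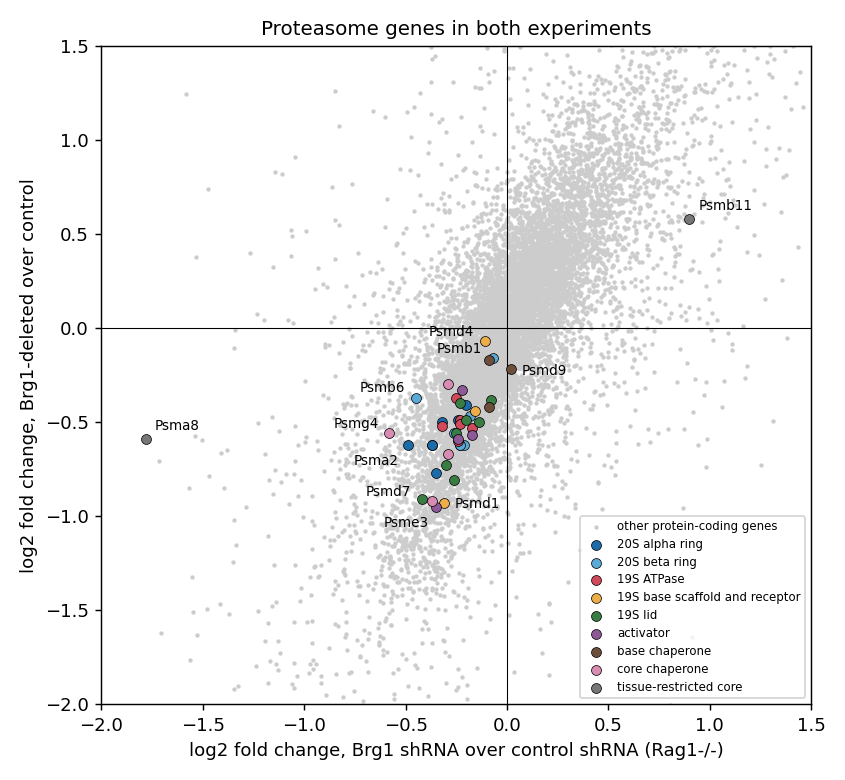
The log2 fold change of each proteasome gene after Brg1 knockdown (horizontal) and after Brg1 deletion (vertical), coloured by class, over 11012 protein-coding genes with a mean of at least 10 in both tables less the proteasome genes (grey, those outside the axes not shown). All genes but Psmb11 and Psmd9 lie at the lower left, inside the grey cloud, and the 2 tissue-restricted genes lie far from the rest.

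By complex, core, ATPase and lid genes were all lower in mean, and the data cannot tell small differences between these classes. After deletion the medians were -0.59 for the 14 core genes, -0.52 for the 6 ATPases and -0.53 for the 8 lid genes, and after knockdown they were -0.25, -0.24 and -0.24. Without Brg1-deleted library 1 the deletion medians were -0.51, -0.41 and -0.50 in the same order. Summed normalized reads of the core came to 13088 and 13238 in the Brg1-deleted libraries against 18270 and 19331 in the control libraries. The ATPases came to 5743 and 6610 against 8914 and 8475, and the lid to 7474 and 8423 against 12456 and 11350. For each of the 3 sums the groups were separate by more than the spread between libraries, while 2 libraries against 2 cannot give an exact two-sided permutation p below 0.333. The ratio of lid to core reads was 0.571 and 0.636 in the Brg1-deleted libraries against 0.682 and 0.587 in the control libraries (exact two-sided permutation p = 0.667). The ratio of ATPase to core reads was 0.439 and 0.499 against 0.488 and 0.438 (exact two-sided permutation p = 0.667). Both ratios overlapped between groups, and with this number of libraries the test could not have called a shift between sub-complexes. In the knockdown experiment the summed means were 14741 with Brg1 shRNA and 17886 with control shRNA for the core, 6745 and 7974 for the ATPases, and 9061 and 10676 for the lid.

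**Figure D3:**
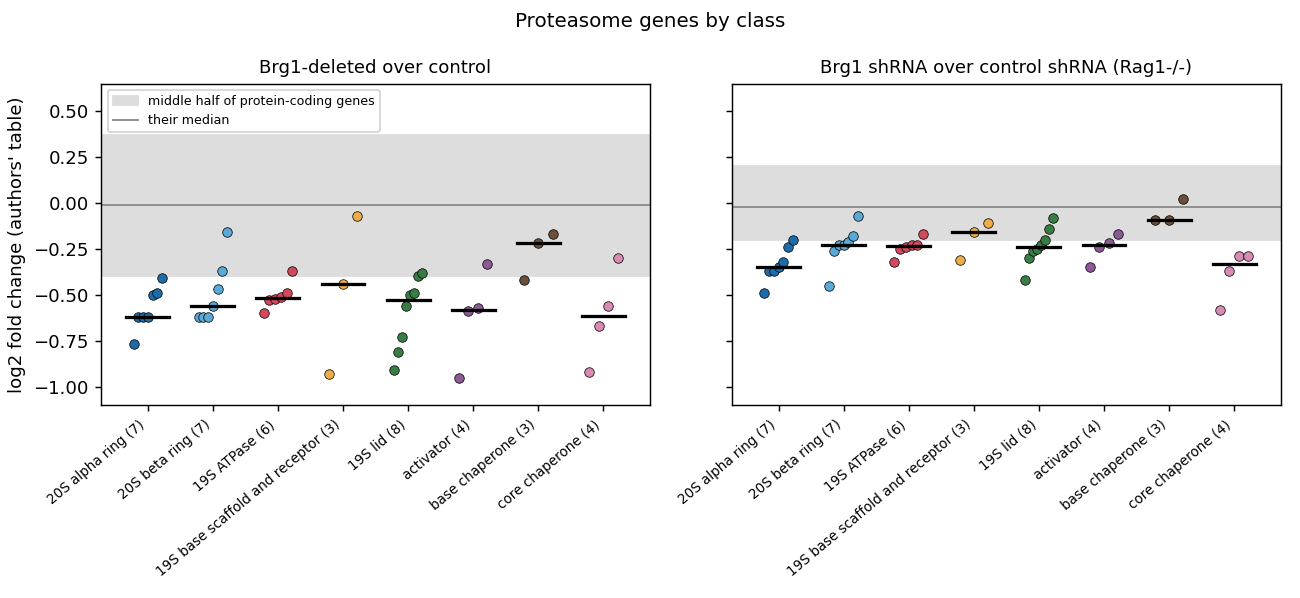
Log2 fold change of the broadly expressed proteasome genes by class after deletion (left) and knockdown (right), with the class median as a black bar, from the authors' tables. The grey band is the interquartile range of protein-coding genes with a mean of at least 10 (-0.40 to 0.37 and -0.20 to 0.20). Every class median but that of the base chaperones lies below the band after deletion, and after knockdown those of the base chaperones and the base scaffold and receptor lie inside it.

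**Figure D4:**
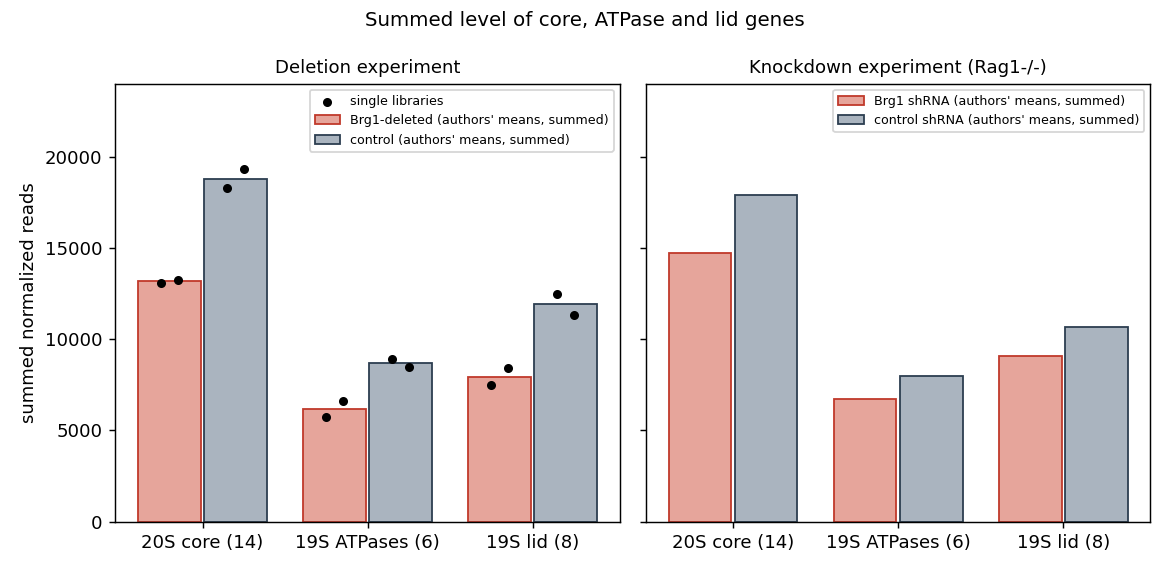
Summed normalized reads of the 14 core, 6 ATPase and 8 lid genes in the 4 groups (bars, authors' means summed) and in the single libraries of the deletion experiment (points). The Brg1-depleted bar is lower in all 6 pairs, and the points of the 2 deletion groups do not overlap. The tables were normalized separately, so bars compare only within a panel.

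Per kb of exon, levels differed widely across the 31 subunits of the 20S and 19S particles. The deposited exon length is a single value per gene, so a long annotation lowers this level. How that length was built was not checked. In control cells the median was 659 normalized reads per kb, with Psmb1 highest at 1802 and Psmc2 lowest at 232, and in Brg1-deleted cells 476, with the same genes at 1609 and 153. In the alpha ring Psma2 and Psma6 were highest in Brg1-deleted cells, at 961 and 942 per kb against 1481 and 1252 in control cells, and Psma3 and Psma7 lowest, at 177 and 348 against 249 and 535. In the beta ring Psmb1 was followed by Psmb4, at 964 against 1338, and Psmb3 and Psmb6 were lowest, at 334 and 445 against 491 and 576. Among the ATPases Psmc1 and Psmc5 were highest, at 821 and 700 against 1153 and 1011, and Psmc2 lowest. Next lowest was Psmc4 in Brg1-deleted cells, at 476 against 680, and Psmc3 in control cells, at 510 against 659. Of the scaffolds and receptor, Psmd2 was highest, at 554 against 749. In the lid Psmd8 and Psmd7 were highest, at 835 and 554 against 1102 and 1038, and Psmd11 lowest, at 182 against 238, followed by Psmd12 in Brg1-deleted cells (244 against 405) and Psmd3 in control cells (273 against 402). Among the activators Psme1 and Psme3 were highest, at 555 and 490 against 696 and 951, and Psme4 and Psme2 lowest, at 145 and 343 against 219 and 510. The chaperones had lower medians than the subunits, at 116 per kb in Brg1-deleted cells against 188 in control cells for core chaperones and 124 against 139 for base chaperones, although Psmg2, at 196 against 311, lay above Psma3, Psmc2 and Psmd11. Levels with Brg1 shRNA and control shRNA had medians of 508 and 602 per kb over the 31 subunits.

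The inducible catalytic genes, which replace their constitutive counterparts in the immunoproteasome, lay nearer to 0 in value. Psmb8 had means of 1892 in Brg1-deleted cells and 1984 in control cells (log2 fold change -0.07), Psmb9 of 1033 and 1022 (0.02) and Psmb10 of 601 and 720 (-0.26). The adjusted p was 1 for all 3, per the authors' deposited table. The ratio of Psmb9 to Psmb6 was 1.15 and 1.35 in the Brg1-deleted libraries against 0.770 and 1.09 in the control libraries, and that of Psmb10 to Psmb7 was 0.716 and 0.671 against 0.472 and 0.607. Both ratios were higher in both Brg1-deleted libraries, and each has an exact two-sided permutation p of 0.333, the smallest that 2 against 2 allows. Of all single genes, 24.7% had both Brg1-deleted libraries higher. Psmb9 itself had 997 and 1069 in the Brg1-deleted libraries against 742 and 1302 in the control libraries, which overlap. Psmb10 had 614 and 587 against 624 and 817. Psmb8 could not be resolved, so its ratio to Psmb5 has no library values. Summed over the 3 inducible and the 3 constitutive genes, the ratio of group means was 1.57 in Brg1-deleted cells and 1.15 in control cells, and 1.53 with Brg1 shRNA and 1.18 with control shRNA.

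Of 32 other genes of the pathway, 31 were listed in both tables, with a median log2 fold change of -0.29 after deletion and -0.13 after knockdown. By the authors' deposited table, after deletion 1 of the 31 was called lower and 0 higher, where 0.742% of all genes were called lower and 0.732% higher. At an unadjusted p under 0.05 there were 5 lower and 1 higher, where 9.52% of all genes had such a p. After knockdown 0 of the 31 were called, where 0.218% of all genes were, and 1 had an unadjusted p under 0.05, where 2.74% of all did. That gene was the shuttle receptor Rad23b, at -0.59. The called gene was Uchl5, the deubiquitinase that docks on the base. It fell to 282 and 280 normalized reads in the Brg1-deleted libraries, against 744 and 726 in the control libraries, at -1.39 on the log2 scale (adjusted p 0.0184, authors' deposited table). After knockdown Uchl5 had means of 466 with Brg1 shRNA and 666 with control shRNA (-0.52, adjusted p 1, authors' deposited table). Next by adjusted p in the authors' deposited table came AI314180, the proteasome adaptor Ecm29, at -0.92 (0.1785), Usp14, the other docked deubiquitinase, at -0.94 (0.2226), and Nfe2l2, a stress regulator related to Nfe2l1, at 0.86 (0.3386). Usp14 had 605 and 516 normalized reads in the Brg1-deleted libraries against 1203 and 952 in the control libraries, and Nfe2l2 had 1317 and 1779 against 935 and 771. Pomp, which matures the core, had log2 fold changes of -0.59 and -0.19 after deletion and knockdown, Shfm1 (Sem1), a small lid subunit, of -0.50 and -0.34, and Adrm1, a ubiquitin receptor, of -0.23 and -0.07. Nfe2l1 had 815 and 876 normalized reads in the Brg1-deleted libraries against 1009 and 801 in the control libraries, which overlap, and log2 fold changes of -0.10 and -0.07.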

How the data were processed

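Polyadenylated RNA was made into strand-marked libraries with dUTP, per the labels' protocols, in 10 libraries of 4 groups, and groups were taken from the sample titles. The 16 other samples were not analysed here. CASAVA, RSEM and DESeq with the mm10 build are named in the submitters' processing notes, without versions. The mean columns are a signal, normalized reads averaged over the libraries of a group by the authors, and the log2 fold change, the signed fold score, the p-value and its Benjamini-Hochberg adjustment were deposited by the authors in the same tables, as the file headers name them. The members and lists were chosen with earlier results of these data known. Values in full were given for called genes, for Psmb5, Psmb6 and Psmb7, for the 4 lowest adjusted p-values and 3 highest and lowest fold changes per table (in the knockdown table adjusted p-values tie at 1), for 2 high and 2 low genes per class by level per kb, and for related genes that were called, had the 4 lowest adjusted p-values, or are Nfe2l1, Pomp, Adrm1 or Sem1.

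Because a deletion mean averages 2 libraries, it is a sum of whole reads in which a read of either library adds its own fixed amount. These amounts came from the smallest values and were then fitted over larger ones. With deviations up to 6e-05 allowed, 19403 of 19404 Brg1-deleted means and all 19404 control means had a solution, and 97.1% and 95.2% had 1 only. Of random values, 2.43% and 2.88% had a solution. The random values lay below the means of most proteasome genes. A chance fit is more frequent at higher values, so these 2 shares do not hold for such means. The 2 libraries of a group differed by more than sampling noise (chi-square 26.5 per gene for Brg1-deleted and 20.1 for control libraries), so they were not treated as 1 library deposited again, which does not show that they came from separate mice. limma 3.58.1 (R 4.3.3, with a mean-variance trend) took log2 of reads plus 0.5, divided by the library's size factor, of genes with 1 solution and a mean of at least 1. Approximate depths take the summed means as equal between the libraries of a group. The rest used scipy 1.17.1, pandas 2.3.3, numpy 2.4.6 and, for plots, matplotlib 3.10.9 under Python 3.11.15. Simulated data with known answers were used to test both the recovery and limma. Their spread between libraries was set in advance and not estimated from these libraries, so they do not tell how limma performs at the real spread.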

Additional observations from a re-analysis of the deposited data

How the results depend on the processing

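Under 10 alternatives for deletion and 5 for knockdown that count called proteasome genes, the count was 0 throughout. They were an adjusted p of 0.1, adjustment over protein-coding genes, a mean of at least 10, a 1.5-fold minimum, genes without the authors' confounded mark, and, for deletion, limma with all libraries and without each. Over all genes limma called 0 without either Brg1-deleted library, 2 without control library 1 and 47 without control library 2. The lone library left in a group was assumed to vary like the other group. The median log2 fold change was -0.49 to -0.52 after deletion and -0.20 to -0.24 after knockdown under other scalings, pseudocounts and gene sets. Leaving out each library gave -0.62 to -0.45 for all, -0.64 to -0.51 for the core, -0.60 to -0.41 for the ATPases and -0.68 to -0.50 for the lid, with 0 proteasome genes called. The ATPase median was -0.41 without Brg1-deleted library 1 and the lid median -0.68 without Brg1-deleted library 2, and the cause was not tested. Other settings moved the class medians by less than 0.1. The leave-outs by class and the median over limma values were chosen after seeing the data. No paired analysis was possible because the columns carry no replicate numbers. With 2 libraries per group, and group means alone after knockdown, small differences between genes or classes cannot be resolved.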

Other observations

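Psme2b, a near-identical copy of Psme2 that the rule does not take in, had the opposite sign to its parent gene. Its log2 fold change was 0.72 after deletion and 0.62 after knockdown, and both have adjusted p 1 per the authors' deposited table, while Psme2 lay at -0.57 and -0.17. In single libraries Psme2b had 473 and 215 normalized reads in the Brg1-deleted libraries against 103 and 313 in the control libraries, which overlap. The split of reads between the near-identical pair is uncertain.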
